A study of Mus musculus with 10 samples.

Results

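The clustered histone genes of the mouse were followed in femur RNA. They were taken as the rows whose symbol begins with Hist1h, Hist2h, Hist3h or Hist4h, 69 of the 27179 genes listed. Of these 69, 15 had 10 or more normalized counts in at least 5 of the 10 libraries and entered the tests, while 54 stayed below that filter and are described by their values. By class, 6 code for linker histone H1, 19 for H2A, 19 for H2B, 12 for H3 and 13 for H4. On the mm10 genome 55 lie on chromosome 13, 10 on chromosome 3, 3 on chromosome 11 and 1 (Hist4h4) on chromosome 6.

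Pairs of the core histones H2A, H2B, H3 and H4 form the spool around which DNA is wound, and H1 binds where the DNA enters and leaves it. Most genes of these clusters are switched on during DNA synthesis, and their messenger RNA ends at a short stem-loop with no poly(A) tail. A minority are known, in differentiated human cells, to also give RNA that runs past the stem-loop and ends in a poly(A) tail. Among those are the human counterparts of Hist1h1c, Hist1h2ac, Hist1h2bc, Hist1h2bk and Hist2h2be.

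Femurs came from 10 mice aged 3 or 4 weeks, and each mouse gave 1 library. The 5 mutants (Fgfr1+/N330I; 3 labelled female and 2 labelled male) carried the N330I change in 1 allele of Fgfr1, and their WT littermates numbered 3 females and 2 males. Fgfr1 codes for a cell surface kinase that binds fibroblast growth factors, and the series presents the mice as a model of osteoglophonic dysplasia, a skeletal disorder. Ages of single mice are not given in the labels, and the male and female libraries carry different name series, so that by label sex and whatever else separates these series cannot be told apart. The labels describe ribosomal RNA depletion for every library. Values are normalized counts: a read count divided by a size factor for the library.

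A list of 12 osteoblast and osteocyte markers summed to 503203 to 894640 normalized counts per mutant library and 193889 to 1610667 per WT library. Most of this was Col1a1 (265798 to 467003 in mutants, 68115 to 826152 in WT mice) and Col1a2 (223823 to 361013 and 108954 to 608256). Ibsp had 9463 to 48969 and 8167 to 147581. Other members were scarce, such as Bglap (39 to 273 and 15 to 91), Mepe (10 to 193 and 0 to 107) and Sost (0 to 56 and 0 to 96). Red cell precursor genes were low, with 7 listed genes summing to 45 to 120 per mutant library and 74 to 181 per WT library. The 7 B cell genes summed to 361 to 690 per mutant library and 262 to 739 per WT library, mostly from Ebf1 (247 to 725 over all libraries), while Igll1 was at 0 throughout. The 12 macrophage and osteoclast genes summed to 126289 to 428050 per mutant library and 115325 to 184657 per WT library. Fgfr1 itself was at 8856 to 12990 in mutants and 3861 to 11326 in WT mice (limma adjusted p = 0.783), and gene counts do not separate its alleles. In the library labelled male mutant 2, Xist, which coats the inactive X chromosome, stood at 7972 normalized counts and Ddx3y, a gene of the Y chromosome, at 4. Xist was at 14 to 48 in the other 3 labelled males and Ddx3y at 1558 to 1936, so that library goes against its sex label. Library depth was estimated at 18060000 to 30640000 reads. Female WT 3 was the shallowest, with 1 read worth about 2.19 normalized counts (at most 1.11 elsewhere), and Rn45s, the ribosomal RNA precursor, took 28.8% of its counts against 0.149% to 0.428% elsewhere.

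The stem-loop is shown for a few members because its place in the annotated transcript differed between members that passed the filter and most that did not. Each stands with 5 flanking bases on either side, read 5′ to 3′ along the messenger strand from GENCODE M21 transcripts (build GRCm38, the same assembly as mm10), with the 16 bases of the stem-loop in capitals. Hist1h1c, Hist1h1d, Hist1h4i and Hist1h4h passed the filter, and Hist1h2bb, Hist1h3b and Hist1h4c did not.
Hist1h1c: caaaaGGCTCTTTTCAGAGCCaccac
Hist1h1d: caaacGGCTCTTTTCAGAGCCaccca
Hist1h4i: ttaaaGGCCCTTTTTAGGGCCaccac
Hist1h4h: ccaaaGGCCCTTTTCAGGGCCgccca
Hist1h2bb: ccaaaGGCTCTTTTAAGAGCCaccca
Hist1h3b: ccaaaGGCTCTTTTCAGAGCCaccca
Hist1h4c: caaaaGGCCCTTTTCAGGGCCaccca

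The loop of Hist1h1c lies at chr13:23739512-23739527 on the plus strand, and 840 bases of its transcript follow it. That of Hist1h1d is at chr13:23555787-23555802 (plus strand), with 4884 bases after it, and that of Hist1h4i at chr13:22040966-22040981 (minus strand), with 330. In Hist1h2bb, at chr13:23747203-23747218 on the plus strand, 23 bases follow, and in Hist1h3b, at chr13:23752820-23752835, 51. Exceptions run both ways. Hist1h4h (chr13:23531458-23531473) has 46 bases after the loop, and Hist1h4c (chr13:23698089-23698104, minus strand) has 454. These lengths are of GENCODE transcripts, while the values go with the authors' gene models. Those models hold the loop of Hist1h1c, Hist1h1d, Hist1h4i and Hist1h4h. The models of Hist1h2bb and Hist1h3b end before it, at 23747202 and 23752790. That of Hist1h4c, on the minus strand, stops short of it at 23698138.

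The motif searched, on the transcript strand alone, was a left arm GGNNC, then TTTTNN, then a right arm GNNCC, with N for any base and no gap. It was found in annotated transcripts of 44 members, 12 that passed the filter and 32 below it. The motif occurs in 0.283% of the 55450 annotated genes. Among the 12 the transcript went on for a median of 996.5 bases past the loop (46 to 4884), and among the 32 for a median of 40 bases (3 to 2445). More than 100 bases followed in 11 of the 12 and in 11 of the 32. The most common loop, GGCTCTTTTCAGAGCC, was shared by 26 members of the H1, H2A, H2B and H3 classes, while all 11 H4 members with a loop had a form beginning GGCC or GGTC. Absence of the motif says only that these letters are not in the annotated transcript. The authors' gene models were also longer in the first set, with a median of 1825 exon bases in the 15 and 393 in the 54. Of the 54, 43 were a multiple of 3 in length, as coding sequence without untranslated parts would be. The filter took counts not divided by length, and longer models reach it more easily. Lengths inside and outside the filter are thus not independent of it.

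**Figure D1:**
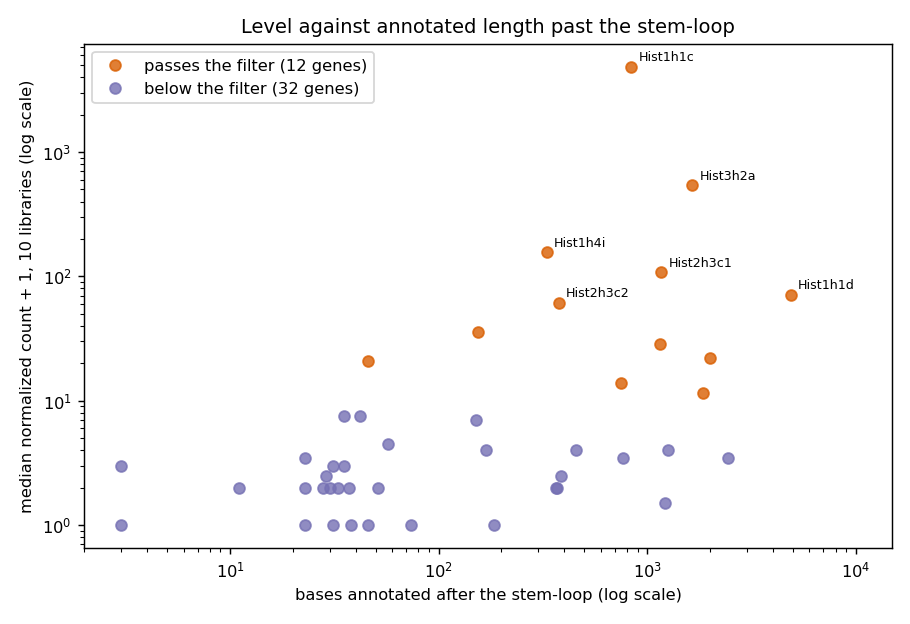
Level of the 44 histone genes with an annotated stem-loop, as the median normalized count + 1 over 10 libraries, against the number of bases after the loop in GENCODE transcripts (both axes logarithmic). Levels go with the authors' gene models, some of which end before the loop, and are not divided by gene length. Members that passed the filter (orange, 12) had a median of 996.5 bases after the loop and those below it (purple, 32) a median of 40.

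Many of these genes are near copies of each other. In the annotated transcripts a median of 28.9% of all stretches of 50 bases in the 15 tested members also occurred in another member, and 55.0% in the 54 below the filter. With other annotated genes included, the medians were 30.1% and 55.0%. Among tested members, Hist2h3c1 then went from 34.8% to 100% and Hist3h2a from 2.0% to 31.5%. How reads that fit several genes were counted is not given in the sources used here, so levels of close copies (Hist2h3c1 and Hist2h3c2, Hist2h2aa1 and Hist2h2aa2) are uncertain. In the authors' models an exon of Hist1h2be falls inside Hist1h1e, so reads there could belong to either. Hist1h2al lies outside the clusters, and GENCODE lists it as a processed pseudogene of 339 bases where the authors' model has 3480. Whether its values come from a histone message cannot be told. Of the promoters in RefSeq (GRCm38.p6; a window around the gene start), 62 members had one by gene ID. CCAAT, on either strand, was in all H1, H2A, H2B and H3 promoters but in only 3 of 12 H4 promoters (25%), and in 41.1% of all promoters. ATTTGCAT, the octamer known from H2B promoters, was in 7 of 18 H2A and 7 of 16 H2B promoters, in none of the other 28, and in 1.97% of all. AAACACA, known from H1 promoters, was in 5 of 6 H1 promoters and in 8.22% of all. The 12 promoters of tested members and the 50 of the rest held CCAAT in 83.3% and 86% and TATAAA in 50% and 58%.

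In femur the histone signal came from a handful of genes. Summed over all 69 members it came to 5142 to 11228 normalized counts per mutant library and 6285 to 18394 per WT library. H1 genes gave 68.1% of the mean total, H2B genes 16.9%, H2A genes 9.01%, H4 genes 3.49% and H3 genes 2.45%. Hist1h1c alone made up 56.7% to 72.0% of the histone counts of a library. Per kilobase of exon, Hist1h1c averaged 3760 normalized counts over the 10 libraries, Hist1h2bc 1722, Hist1h4i 388 and Hist3h2a 349, and every other member was under 100. On this per-length scale the order within H1 was Hist1h1c, Hist1h1d (35.4) and Hist1h1e (19.2), within H2A Hist3h2a, Hist1h2al (10.7) and Hist1h2ac (8.95), within H2B Hist1h2bc, Hist1h2bg (97.4) and Hist2h2be (47.1), and within H3 Hist2h3c1 (63.2), Hist2h3c2 (61.6) and Hist1h3d (33.1).

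The remaining 54 members were near 0 in 9 of the 10 libraries. Together they summed to 89 to 129 normalized counts in the 5 mutants and to 79 to 177 in 4 of the WT mice, but to 985 in female WT 3. In estimated reads the sums were 90.8 to 160.1 in those 9 libraries and 449.1 in female WT 3. Of the 54, 5 were at 0 in every library and 45 never reached 10 normalized counts outside female WT 3. In that library 27 of the 54 were at 10 or more, and in any other library 1 to 5. A count of 0 allows up to 3 reads, which is 6.58 normalized counts in female WT 3 and at most 3.32 in the others (counting error only). Of the 5 at 0 throughout, Hist1h2bq, Hist1h2ao, Hist1h2ap and Hist1h2br shared 93.1% to 98.5% of their 50-base stretches with another member, and Hist1h2aa 2.35%. How reads that fit several genes were counted is not given, so a 0 in such copies need not mean little RNA. Members of known testis type were also low: Hist1h1t was at 0 to 3 and Hist1h2aa at 0 throughout, while Hist1h2ba stood at 0 to 17 in mutants and 0 to 35 in WT mice, and the genotypes overlapped.

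All classes shared in the excess of female WT 3. Members below the filter summed there to 420 normalized counts for H4, against 22 to 46 in the other 9 libraries. The same sums were 177 against 17 to 39 for H2A, 163 against 5 to 19 for H3, 139 against 26 to 78 for H2B and 86 against 3 to 14 for H1. Hist1h4d had 90 normalized counts in female WT 3 and 1 to 4 elsewhere, Hist1h4c had 75 against 0 to 10, and Hist1h1a had 42 against 0 to 2 (these 3 genes were chosen after their values were seen). These are small numbers of reads, about 41.0, 34.2 and 19.1 in that library. Of the 49 members below the filter with any count, 37 were highest in female WT 3 (75.5%), where 13.1% of all such low genes were, and 16.9% of those with 300 to 600 exon bases. Of the 15 that passed, 6 were highest there, against 7.37% of all tested genes.

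Most of the 9 other listed RNAs without a poly(A) tail were also far higher in this library. Rmrp, the RNA of a nuclease that processes ribosomal RNA, had 10342 normalized counts in female WT 3 and 6 to 51 in the other 9. Rn7sk, a regulator of transcription elongation, had 15516 against 28 to 87, and Rpph1, the RNA of ribonuclease P, had 10550 against 10 to 109. Rny1, Rny3, Rnu11 and Rnu12 had 70 to 877 there and at most 8 elsewhere. Terc, the telomerase RNA, did not stand apart, with 2 normalized counts against 0 to 4. Malat1, a long nuclear RNA, had 26544 in female WT 3 and was well measured elsewhere too, at 1179 to 3949 in labelled males and 12366 to 17158 in the other females. It was lower in labelled males (-2.73 ± 0.33, limma adjusted p = 0.0031). The 114 listed Snora and Snord genes summed to 6812 against 396 to 915 (a set added after values were seen). Of the 9 listed RNAs without a tail 4 passed the filter, and 0 were called for genotype by limma (background 0%). Of these 4, 0 had an unadjusted p under 0.05 (limma), where 6.32% of all tested genes lay. Their median difference was -2.30. The group was put together as mostly RNAs without a poly(A) tail, visible through ribosomal RNA depletion. Of the 69 histone members, 54 were near 0 in 9 of the 10 libraries. Most histone counts were those of Hist1h1c, whose annotated transcript runs past the stem-loop. Whether the counted RNAs carry a tail was not tested. Why female WT 3 differs was not tested.

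**Figure D2:**
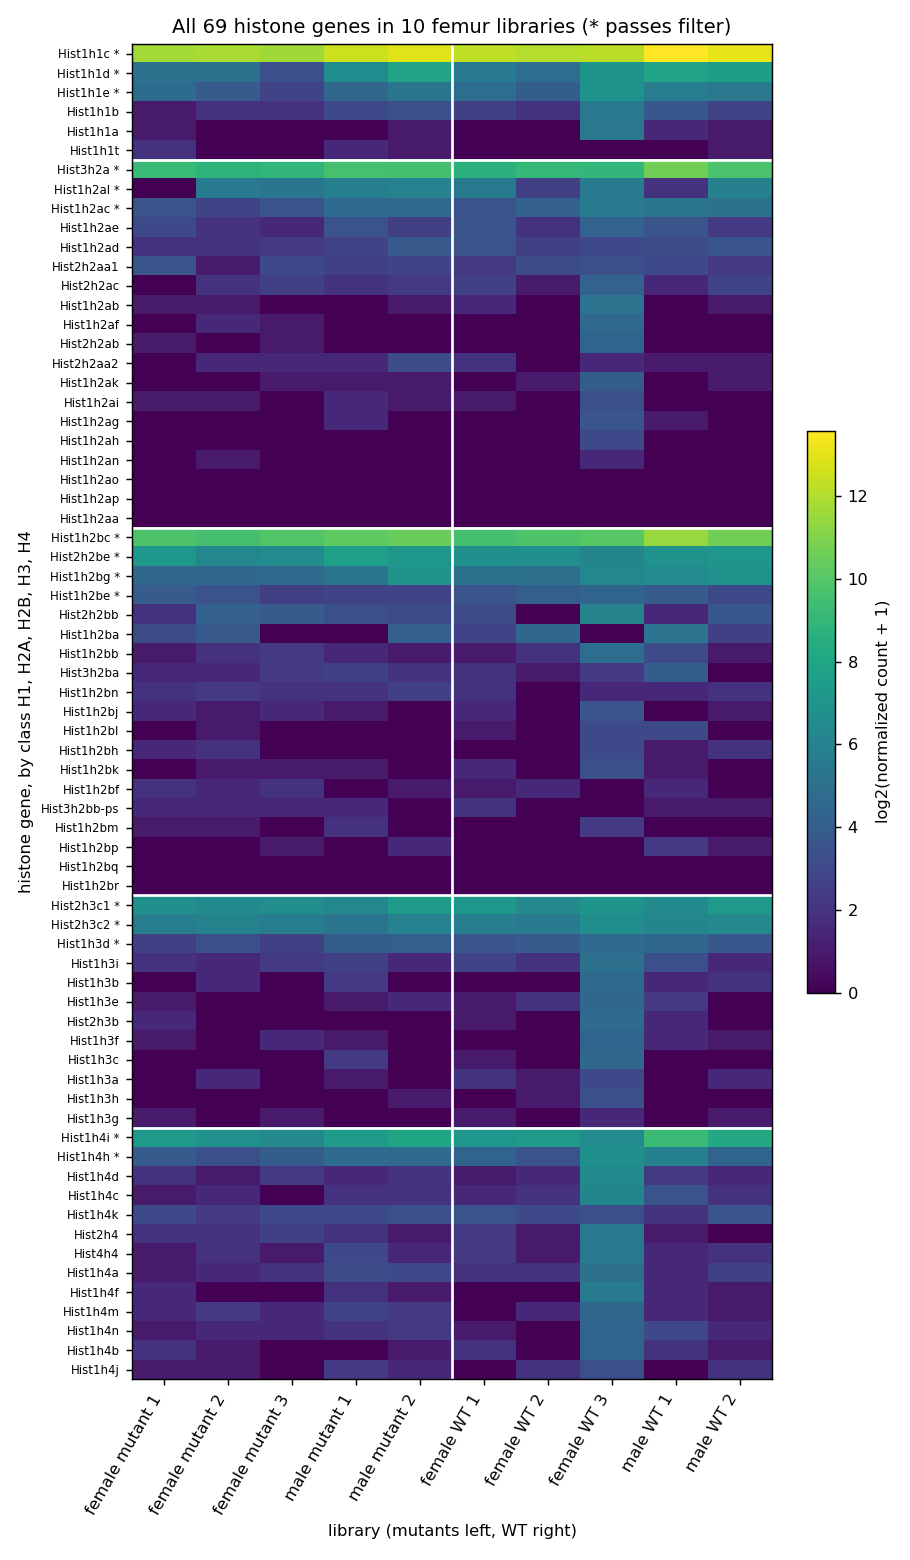
Log2(normalized count + 1) of all 69 histone genes (rows, by class, with a star on the 15 that passed the filter) in the 5 mutant (left) and 5 WT (right) libraries. Most rows without a star are near 0 except in female WT 3, where these 54 genes summed to 985 normalized counts against 79 to 177 elsewhere.

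The main question of the design is what differs between mutant and WT bone. Among the 15 tested histone genes most estimates lay below 0 in the mutants, but none passed the test. Estimates came from limma on log2(normalized count + 1) with labelled sex as covariate, and p-values were adjusted by Benjamini-Hochberg over all 14362 tested genes. By this limma test 0 of the 15 had an adjusted p under 0.05, where the background of tested genes called was 0%. At an unadjusted p under 0.05 there was 1 of the 15 (limma), where 6.32% of all tested genes lay. The median of the 15 differences was -0.52 on the log2 scale, beside -0.01 over all tested genes. Of the 15 estimates, 13 were below 0, as were 51.8% of all genes. When female WT 3 and male WT 1 were omitted together, 12 were below 0, with a median of -0.39. In none of the 15 did all mutants lie above or all below the WT mice, as 0.494% and 0.334% of all tested genes did. Since these genes share libraries and many share sequence, they are not independent of each other, and the count carries no test. Markers of other cells also leaned by genotype, with 0 called by limma. Of 12 macrophage and osteoclast genes 7 had an unadjusted p under 0.05, all higher in the mutants (median of the 12, 1.04). They were Oscar, Ocstamp, Dcstamp, Mmp9, Ctsk, Acp5 and Calcr. The other 5 (Csf1r, Adgre1, Cd68, C1qa and C1qb) were below 0, at -0.31 to -0.07. All 7 skeletal muscle genes were above 0 (median 1.31; 432 to 5440 summed in mutants and 355 to 1709 in WT mice), and all 6 endothelial genes below 0 (median -1.13; 1251 to 19839 in mutants and 10273 to 23464 in WT mice). Of 11 osteoblast and osteocyte genes 9 were above 0 (median 0.50). Medians in females and in labelled males were 2.22 and 0.24 for muscle genes, and -1.97 and 0.05 for endothelial genes. They were -0.32 and 1.74 for osteoblast and osteocyte genes, and 0.85 and 1.31 for macrophage and osteoclast genes. The endothelial sum of 1251 was female mutant 1, and the other mutants had 7434 or more. The part of these markers in the histone estimates was not tested. In bulk femur, fewer cells of a type and less RNA per cell cannot be told apart.

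Hist1h1c, a linker histone gene, had the smallest p among the members. It had 3274, 3713 and 3178 normalized counts in the female mutants and 5895 and 7716 in the male mutants (7716 in the library labelled male mutant 2), against 5032, 4230 and 4637 in the female WT mice and 12292 and 8724 in the male WT mice. Within females and within labelled males every mutant library lay below every WT library, although pooled over sex the genotypes overlapped. This separation rests on the label of male mutant 2, whose Xist and Ddx3y go against it. Placed with the females, its 7716 would lie above every female WT library. The difference was -0.52 ± 0.13 (SE), with a limma p of 0.00218 and an adjusted p of 0.493, so it did not pass. Over the alternative settings it ran from -0.62 to -0.37 and kept its sign in all 25, with adjusted p from 0.186 to 0.991. A gene lower in the mutants without overlap in both sexes as labelled was 1 of the 15 members, Hist1h1c, and 1.17% of all tested genes.

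The other H1 genes were far lower. Hist1h1d had 33, 32 and 9 normalized counts in the female mutants and 95 and 242 in the male mutants (242 in the library labelled male mutant 2), against 46, 28 and 132 in the female WT mice and 240 and 198 in the male WT mice. Groups overlapped, and the difference of -1.01 ± 0.51 did not pass (limma adjusted p = 0.791). It was -0.63 without female WT 3 and -0.65 without female mutant 3. Hist1h1e stood at 6 to 40 in mutants and 15 to 123 in WT animals, with a difference of -1.14 ± 0.58 (limma adjusted p = 0.794), and -0.64 without female WT 3, which had the highest value. Hist1h1a and Hist1h1b, the H1 genes most tied to dividing cells, stayed below the filter. Hist1h1a was at 0 to 1 in mutants and 0 to 42 in WT mice, and Hist1h1b at 1 to 9 in mutants and 3 to 44 in WT mice, where 42 and 44 were female WT 3.

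Of the H2A genes, Hist3h2a had a mutant mean of 613.6 ± 163.8 normalized counts, against a WT mean of 776.8 ± 487.7 (SD, n = 5 each). Female mutants, at 445 to 561, overlapped female WT mice, at 415 to 523, and male WT 1 was highest at 1598. Its difference was -0.19 ± 0.19, below 0 in 20 of 25 alternative settings, and 0.0056 without male WT 1. Hist1h2ac ranged over 6 to 26 in mutants and 10 to 48 in WT mice, with a difference of -0.89 ± 0.41 (limma adjusted p = 0.786), or -0.52 without female WT 3. Hist1h2al, the listed pseudogene, ranged from 0 to 65 in mutants and 3 to 59 in WT mice, and its difference of 0.26 ± 1.28 ran from -0.61 to 1.42 without 1 library each.

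Hist1h2bc, the most abundant H2B gene, had a mutant mean of 1048.4 ± 262.6 normalized counts, against a WT mean of 1459.0 ± 871.8 (SD, n = 5 each). Female libraries did not separate, at 776 to 942 in mutants and 767 to 1075 in WT mice, while the male mutants had 1191 and 1433 and the male WT mice 2908 and 1622. The difference was -0.34 ± 0.19 (limma adjusted p = 0.795), and -0.14 without male WT 1. Hist1h2bg had 23 to 37 in 4 mutants and 132 in the library labelled male mutant 2, against 31 to 122 in WT mice, with a difference of -0.75 ± 0.37 (-0.49 without male mutant 1). Hist2h2be was 1 of the 2 members estimated above 0, at 81 to 205 in mutants and 72 to 141 in WT mice (0.23 ± 0.22, limma adjusted p = 0.821), and its difference ran from 0.10 to 0.34 without 1 library each. The other was Hist1h2al. Hist1h2be, partly inside Hist1h1e, had 5 to 14 in mutants and 7 to 20 in WT mice (-0.68 ± 0.36).

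Each of the 3 tested H3 genes overlapped between genotypes. Hist2h3c1 had a mutant mean of 109.8 ± 33.7 normalized counts and a WT mean of 120.8 ± 34.6 (SD, n = 5 each). The means of its near copy Hist2h3c2 were 54.4 ± 12.46 for mutants and 71.2 ± 20.97 for WT. The difference of Hist2h3c1 was -0.13 ± 0.26 and ran from -0.31 to 0.0012 without 1 library each. That of Hist2h3c2 was -0.36 ± 0.26, or -0.22 without female WT 3 and -0.19 without male mutant 1. Hist1h3d, at 5 to 16 in mutants and 11 to 26 in WT mice, had -0.79 ± 0.38 (limma adjusted p = 0.788). Of the H4 genes, Hist1h4i had 82 to 255 in mutants and 94 to 614 in WT mice, where 614 was male WT 1, and a difference of -0.48 ± 0.29 (limma adjusted p = 0.795). Without male WT 1 it was -0.24, and without male mutant 1 -0.32. Hist1h4h had 9 to 26 in mutants and 10 to 112 in WT mice, where 112 was female WT 3, and a difference of -0.87 ± 0.60, or -0.31 without female WT 3.

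**Figure D3:**
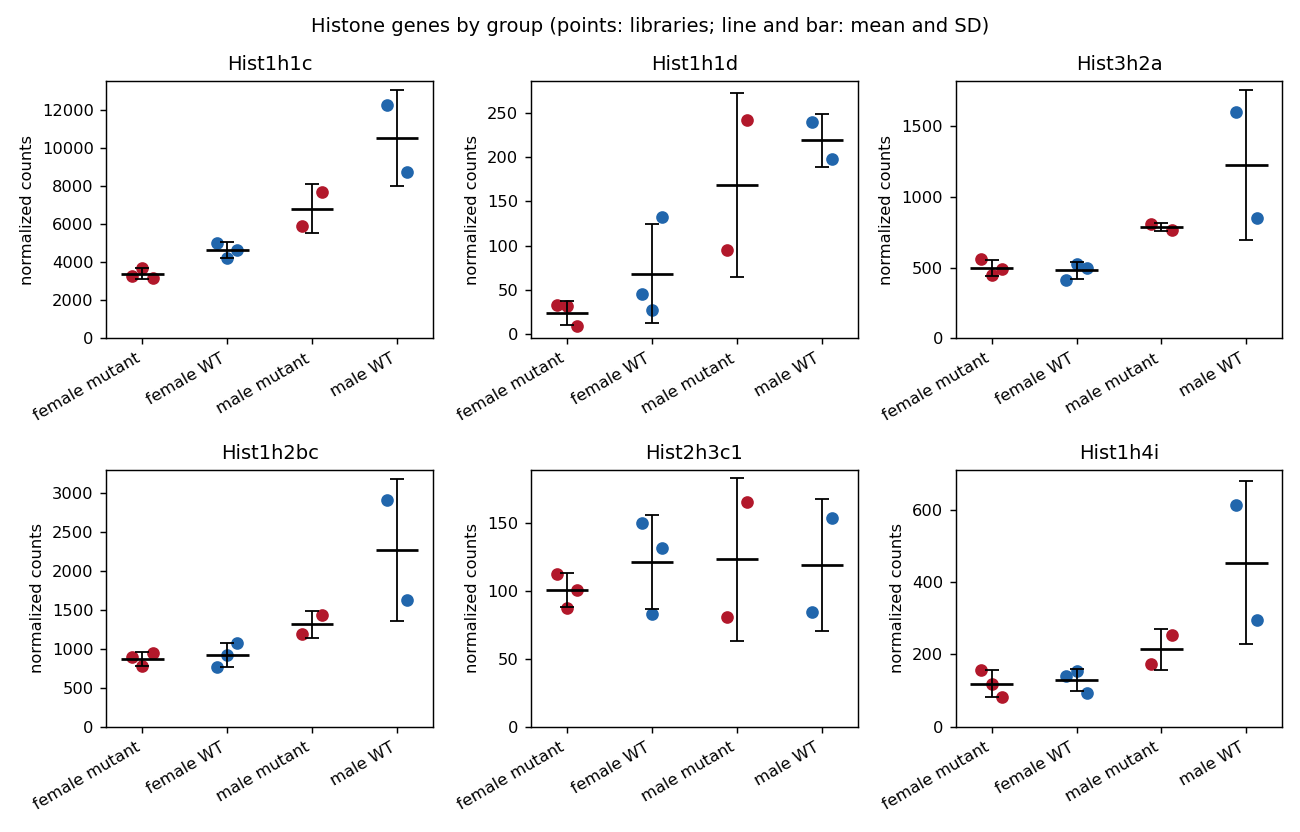
Normalized counts of 6 histone genes by group, with each library as a point and the mean and SD as line and bar (n = 3 for each female group and 2 for each male group; each axis starts at or just below 0). Only for Hist1h1c among the 6 do mutants (red) lie below WT (blue) within both sexes as labelled, at 3178 to 3713 against 4230 to 5032 in females.

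Whether the genotype difference itself differed between the sexes was tested as an interaction over the means of the 4 groups. None of the 15 members passed by limma (background 0% called), and 0 had an unadjusted p under 0.05, where 3.92% of all tested genes lay. The smallest p was that of Hist1h2bc, whose genotype difference was -0.73 ± 0.27 in labelled males and -0.07 ± 0.22 in females (interaction, limma adjusted p = 0.801). Without male WT 2, which leaves male WT 1 alone in its group, 2 members passed the interaction, Hist1h2bc and Hist3h2a, as did 18.6% of all tested genes. That fit assumes that the lone library varies like the other groups. Within females 13 of the 15 estimates were below 0 (median -0.70; 50.4% of all tested genes), and within labelled males 12 (median -0.57; 50% of all). By limma 0 of the 15 were called within either sex, where 0.0139% of all tested genes were called in females and 0% in labelled males. These 2 comparisons use different mice.

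The sexes as labelled were compared next. With genotype as covariate, 6 of the 15 were higher in labelled males by limma at an adjusted p under 0.05, and none was lower, where 9.46% of all tested genes were called higher and 10.6% lower. They were Hist1h1c, Hist3h2a, Hist1h2bc, Hist1h1d, Hist1h4i and Hist1h2bg. The library labelled male mutant 2, whose Xist and Ddx3y go against its label, lay above all females in each (7716, 767, 1433, 242, 255 and 132). Whether sex or the name series lies behind the calls was not tested. The median difference of the 15 was 0.84 log2, beside 0.01 over all tested genes. In 4 of the 15 every labelled male was above every female, as in 10.9% of all tested genes, and in none every labelled male was below, as in 11% of all. The calls cover H1, H2A, H2B and H4 members, and none of the 3 H3 genes. Cell type markers moved with labelled sex as well. All 11 osteoblast and osteocyte genes were below 0 (median -1.69; 7 at an unadjusted p under 0.05, 0 called by limma), with sums of 193889 to 697102 in labelled males and 601039 to 1610667 in females. Of 12 macrophage and osteoclast genes 11 were above 0 (median 0.84; 1 called higher), with sums of 155500 to 428050 in labelled males and 115325 to 183576 in females. Their part in the histone differences was not tested.

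Hist1h1c averaged 8657 ± 2691 normalized counts in labelled males (SD, n = 4) and 4011 ± 749 in females (SD, n = 6). All 4 labelled males, at 5895 to 12292, lay above all females, at 3178 to 5032, and the difference was 1.08 ± 0.13 (limma adjusted p = 0.00305). Hist3h2a stood at 767 to 1598 in labelled males and 415 to 561 in females, again without overlap (0.97 ± 0.19, limma adjusted p = 0.0135). Hist1h2bc was at 1191 to 2908 in labelled males and 767 to 1075 in females (0.92 ± 0.20, limma adjusted p = 0.0177). Hist1h4i was at 175 to 614 in labelled males and 82 to 157 in females (1.31 ± 0.30, limma adjusted p = 0.0212). Hist1h1d had the steepest estimate, 2.36 ± 0.52 (limma adjusted p = 0.0185), with 95 to 242 in labelled males and 9 to 132 in females. The 132 of female WT 3 overlapped the males. Hist1h2bg, at 37 to 132 in labelled males and 23 to 79 in females, differed by 1.41 ± 0.38 (limma adjusted p = 0.0328), and that call was lost when any 1 of 6 libraries was left out: the 3 female mutants, female WT 1, female WT 2 and the library labelled male mutant 2, without which the difference was 1.03.

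The dependence of values on gene length moved with labelled sex, and its part in these differences was tested only by the correction that follows. The log2 deviation of a library changed by -1.62 to 0.138 per log10 of exon bases in labelled males and by 0.17 to 0.448 in females, lowest in male WT 1. After each library was corrected for exon length by a smooth curve, 3 of the 6 calls remained (Hist1h1c, Hist1h1d and Hist3h2a), where 7.67% of all tested genes were called higher. The difference of Hist1h2bc was then 0.37 (limma adjusted p = 0.061), of Hist1h4i 0.65 (limma adjusted p = 0.107) and of Hist1h2bg 0.80 (limma adjusted p = 0.254). That of Hist1h1c stayed within 0.82 to 1.17 over 21 alternative settings, all past the threshold. Without the library labelled male mutant 2, 5 members were called. What else differs between the name series of these libraries was not tested.

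**Figure D4:**
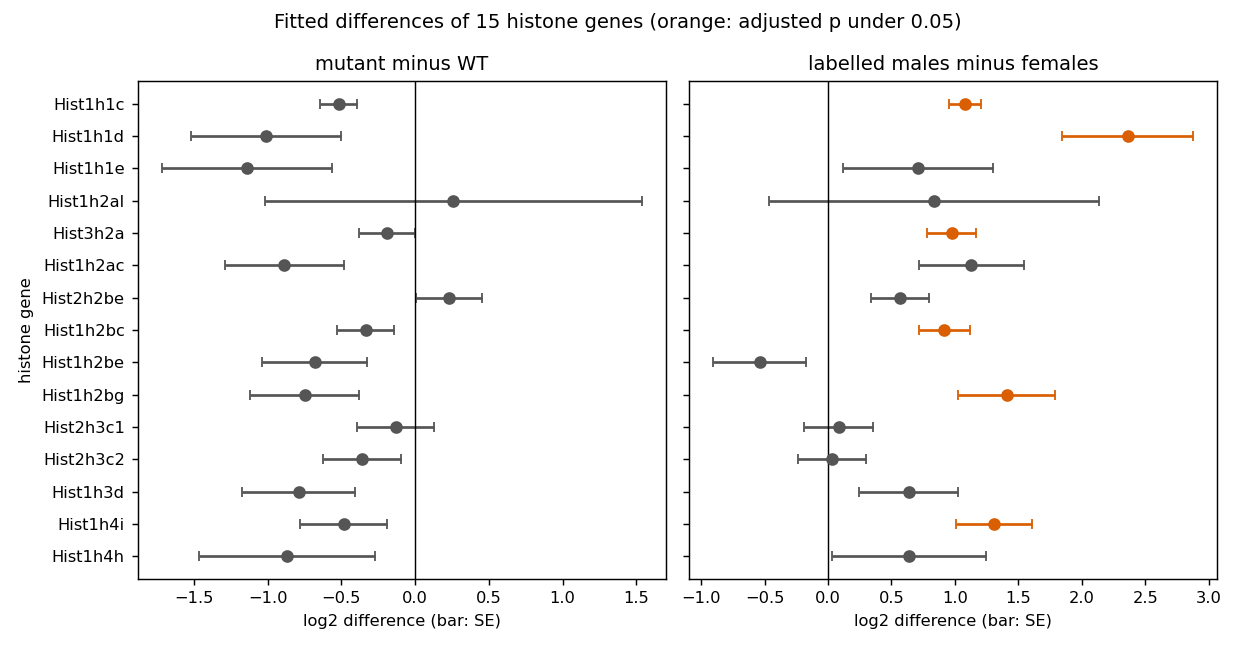
Fitted log2 differences with their SE for the 15 tested histone genes, mutant minus WT on the left and labelled males minus females on the right, with an adjusted p under 0.05 in orange. No member is orange for genotype, 13 of 15 points lie below 0 there, and 6 are orange for labelled sex, all above 0.

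**Figure D5:**
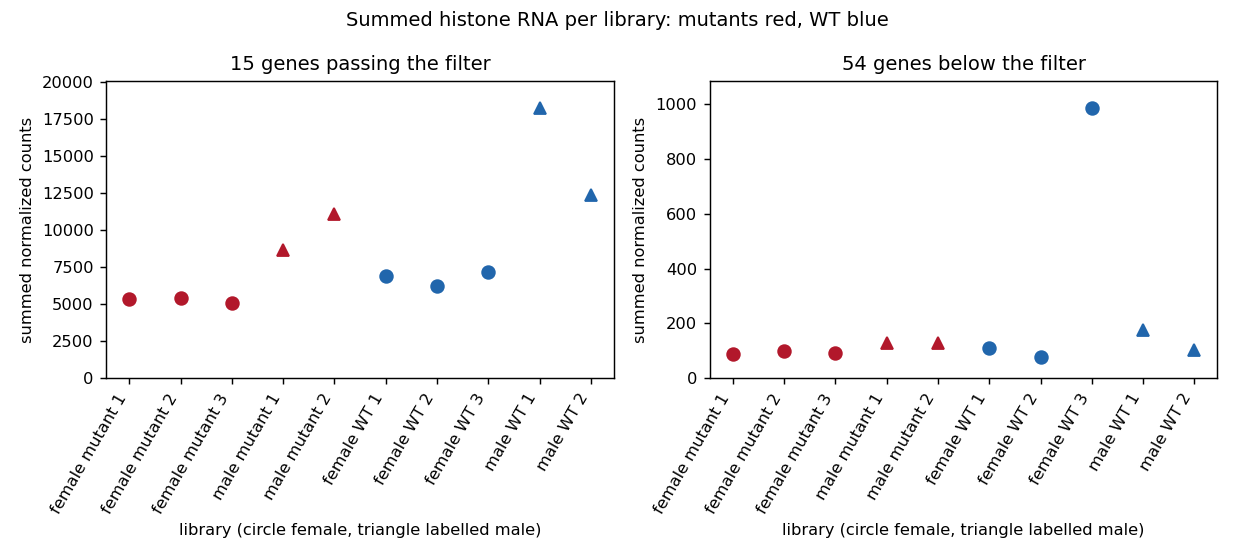
Summed normalized counts per library of the 15 genes that passed the filter and of the 54 below it (mutants red, WT blue, females as circles, labelled males as triangles). The left panel runs from 5051 to 18217 with male WT 1 highest, and on the right female WT 3 stands at 985 with the rest at 79 to 177.

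Genes that make and process histone messages were measured beside them, from lists chosen with earlier results of these data known. All 19 genes of histone mRNA synthesis, processing and decay passed the filter, and 0 were called for genotype by limma (background 0%). The median difference was 0.01, and 1 had an unadjusted p under 0.05 (limma), where 6.32% of all tested genes lay. Slbp, which binds the stem-loop, lay at 613 to 916 normalized counts across mutants and 582 to 910 across WT mice (0.06 ± 0.13). Npat, the cyclin E-CDK2 target that switches on histone transcription, had a difference of 0.21 ± 0.17, and its partner Casp8ap2 (FLASH) 0.31 ± 0.15. The smallest p was that of Cstf2, a cleavage factor (0.24 ± 0.09, limma adjusted p = 0.725). For labelled sex 6 of the 19 were lower and none higher by limma, where 10.6% of all tested genes were lower and 9.46% higher. Among the 6 were Upf1, which acts in histone mRNA decay, at 824 to 1765 in labelled males and 2631 to 3362 in females, and Npat, at 279 to 575 in labelled males and 552 to 703 in females. The Upf1 and Npat gene models span 4616 and 7347 exon bases, against 1561 for Hist1h1c.

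S phase and proliferation genes had estimates mostly above 0 for genotype, 21 of 27, where 51.8% of all tested genes were below 0. Of these 27, 0 were called for genotype by limma (background 0%), and the median was 0.12. An unadjusted p under 0.05 (limma) was found for 3, all higher in the mutants, where 6.32% of all tested genes lay in either direction. Mki67, a marker of cycling cells, was at 1208 to 2010 in mutants and 726 to 1162 in WT mice, without overlap (0.60 ± 0.17, limma adjusted p = 0.594). In 0.494% of all tested genes the mutants lay wholly above the WT mice. The Mki67 gene model spans 10075 exon bases. Its 726 was male WT 1, the library with the lowest slope on gene length (-1.62), and the other WT mice had 881 to 1162. Top2a, a topoisomerase of dividing cells, was at 1132 to 2777 in mutants and 899 to 1277 in WT mice (0.48 ± 0.16, limma adjusted p = 0.709), and Uhrf1, which maintains DNA methylation, had 0.43 ± 0.17. For labelled sex 13 of the 27 were called higher and 0 lower by limma (9.46% and 10.6% of all tested genes). Calls for labelled sex in this and the other lists were made without the correction for exon length. Top2a differed by 0.60 ± 0.16 between labelled males and females (limma adjusted p = 0.0344) and Mki67 by 0.06 ± 0.18.

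Most histone variants that are made outside S phase carry poly(A) tails, while H2afx is known to give both a tailed and a stem-loop message. All 11 listed passed the filter. None of the 11 was called for genotype by limma, and 0 had an unadjusted p under 0.05 (background 0% and 6.32%). Of their estimates 9 were below 0, as were 51.8% of all tested genes, with a median of -0.11. The smallest p values were those of H3f3b, H2afv and H2afx, at -0.18 ± 0.12, -0.23 ± 0.16 and 0.12 ± 0.09. H3f3b, which codes for the replacement histone H3.3, lay at 10102 to 16635 normalized counts across mutants and 9733 to 25357 across WT mice. For labelled sex 6 of the 11 were higher and 0 lower by limma (9.46% and 10.6% of all tested genes). H1f0, the linker histone of resting cells, stood at 6161 to 7414 in labelled males and 3368 to 4754 in females (0.69 ± 0.12, limma adjusted p = 0.00869), and H3f3b at 16421 to 25357 in labelled males and 9733 to 11501 in females. Of 15 histone chaperones 0 were called for genotype by limma, and 0 had an unadjusted p under 0.05 (background 0% and 6.32%). Their median was 0.04, with the smallest p for Daxx (-0.19 ± 0.09), Ipo4 (0.13 ± 0.08) and Atrx (0.36 ± 0.27). For labelled sex 3 chaperones were higher and 4 lower by limma (9.46% and 10.6% of all tested genes), with Chaf1b, a subunit of the assembly factor CAF-1, at 0.78 ± 0.16 (limma adjusted p = 0.0155).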

How the data were processed

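RNA from pulverized femurs was extracted with TRIzol and depleted of ribosomal RNA, per the labels' protocols. STAR 2.5.2b and DESeq2 1.14.1 with mm10 are named in the submitters' processing notes, and no source used here gives the counter or annotation. Each deposited value is a score, namely a read count that the authors scaled by library and left as a whole number, per the file headers. Its original reads were not recoverable throughout, so count tests were not used. The worth of 1 read was estimated from which whole numbers up to 150 occur.

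The 14362 genes that reached 10 normalized counts in at least 5 libraries were tested on log2(normalized count + 1), which understates fold changes of low genes, with limma 3.58.1 in R 4.3.3 (trend, robust; adjusted p under 0.05). The method was tested on simulated data. Members, lists and motifs were chosen with earlier results of these data known. Named were, in each class, the 3 members highest per kilobase and the 3 with the smallest p for genotype, the 5 with the smallest p for labelled sex, those nearest the filter, and those with known poly(A) or testis forms. In the other lists the 3 with the smallest p for genotype were named, along with Slbp, Npat, Casp8ap2, Mki67, Top2a and Fgfr1. Other named genes were chosen after their values were seen. The labels name WT littermates but no litters, so p-values measure the spread between these libraries. No 2 libraries of a group were copies (equal values in at most 1.12% of tested genes).

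Just inside the filter lay Hist1h4h, Hist1h3d and Hist1h2be, whose fifth-highest values were 20, 14 and 11 normalized counts. Just outside lay Hist2h2bb, Hist1h2ba and Hist1h4k, at 9, 8 and 7.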

Additional observations from a re-analysis of the deposited data

Results flagged for a closer look

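Single libraries lay far from the rest of their group in 12 of 68 group checks on members and sums. The measure was Dixon's ratio of the gap to the range, above its 95% critical value. Chance flags about 1 in 20 where checks are independent and values normal. Here checks shared libraries and genes, so the count cannot be set against that rate. Female WT 3 accounted for 7 of the 12. The summed 54 members below the filter stood there at 985 normalized counts, with a ratio of 0.892 among WT mice and 0.964 among females. Among females it was also apart for Hist1h1d (132, others 9 to 46; 0.699), Hist1h1e (123, others 6 to 28; 0.812) and Hist1h4h (112, others 9 to 20; 0.893), and for Hist1h2ac (48, others 6 to 17; 0.738) and Hist1h2bg (79, others 23 to 33; 0.821).

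Male WT 1 was apart among labelled males for Hist3h2a (1598, others 767 to 848; 0.903), Hist1h4h (62, others 20 to 26; 0.857) and Hist1h2be (14, others 6 to 7; 0.875), and lowest for Hist1h2al (3, others 58 to 65; 0.887). The library labelled male mutant 2 was apart among mutants for Hist1h2bg (132, others 23 to 37; 0.872).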

How the results depend on the processing

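Over 25 alternative settings the count of histone genes called for genotype by limma stayed at 0, the median over the tested members ran from -0.70 to -0.36, and 0 named members came past the threshold. Leaving out 1 library in turn gave medians of -0.65 to -0.44. The estimates of Hist3h2a, Hist1h2al, Hist2h3c1, Hist1h4h and Hist2h2be changed sign in some settings, without a call. For labelled sex the count of 6 fell to 3 with the correction for exon length and stood at 5 to 7 in the fits without 1 library each; with the length correction and without female WT 3 and male WT 1 (added after the data were seen) it was 4. The sex median ran from 0.55 to 1.07. Interaction calls were 0 to 2 without 1 library each, 2 without male WT 2, and 0 otherwise. Replicate numbers did not pair the libraries: deviations of same-numbered pairs correlated at -0.319, -0.292 and 0.001 in females, where no mutant correlated best with its own number. In males both same-numbered pairs stood at 0.221 and both others at -0.221; with 2 libraries a group these share 1 size by construction. With the number as a replicate block there were 0 genotype calls, 0 interaction calls and a genotype median of -0.52. Most of the 54 low members rest on a few reads. In estimated reads they summed to 449.1 in female WT 3, the shallowest library, and to 90.8 to 160.1 in the others. No fit gave labelled sex under the block or within 1 sex.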
